A study of Saccharomyces cerevisiae with 8 samples.

Results

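Expression of 39 *Saccharomyces cerevisiae* genes for cell wall proteins, wall synthesis enzymes and cell wall integrity signalling was examined, out of 5797 genes measured. The genes were chosen by name, with earlier results of these data known. They are members of the *PST1*, *CWP*, *PIR*, *GAS*, *FKS*, *CHS*, *CRH*, *SCW* and *SUN* families with their close partners and the integrity pathway genes, and all 39 were found. RNA-seq libraries came from 3 Malaysian isolates (UWOPS05.227.2, UWOPS03.461.4 and UWOPS05.217.3), from 2 wine/European isolates (BC187 and RM11-1) and from 3 hybrids between the populations. The Malaysian isolates and BC187 were MATa/@ HO diploids, and RM11-1 was the diploid RM11-1a × RM11-1b, MATa/@ ura3 ho::kanMX, listed also as lys2/LYS2 leu2/LEU2 in the study's strain table. The labels give all hybrids as MATa/@ HO, while that table gives YHL058 as heterozygous, HO/ho::kanMX. YHL058 was the hybrid of UWOPS03.461.4 and RM11-1b, YHL063 that of UWOPS03.461.4 and BC187, and YHL065 that of UWOPS05.217.3 and BC187. One culture of each was grown in the rich medium YPD at 30° and collected at an OD600 of 0.65 to 0.72. A *P* value therefore measures the spread between strains, or between hybrids, with each strain represented by a single culture. The hybrids are not independent, since YHL058 and YHL063 share UWOPS03.461.4 and YHL063 and YHL065 share BC187. A *P* value between alleles therefore rests in part on the same parental allele in 2 hybrids. In a culture, a lower level could reflect fewer cells that express a gene or less RNA per cell, and these cannot be told apart.

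The yeast wall is a mesh of beta-1,3-glucan, made at the plasma membrane, to which beta-1,6-glucan, chitin and mannoproteins are joined. Glycosylphosphatidylinositol (GPI)-anchored mannoproteins are linked to the mesh through beta-1,6-glucan, PIR proteins are linked directly to beta-1,3-glucan, and transglycosidases cut and rejoin the chains as the bud grows. Damage to the wall is sensed by Mid2 and the Wsc proteins, of which Slg1 (Wsc1) is the best studied. The signal runs through Rho1 and the Pkc1 kinase cascade to the MAP kinase Slt2, which activates the transcription factor Rlm1 and, through it, many wall genes. *PST1* is among the best known targets of Rlm1.

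Levels are normalized read counts, given for the Malaysian strains in the order UWOPS03.461.4, then UWOPS05.217.3, then UWOPS05.227.2, and for the wine/European strains in the order BC187 and RM11-1. Differences are of log2(normalized count + 1), Malaysian minus wine/European, with a standard error (SE) from limma, and a gene was called at an adjusted *P* under 0.05 over all genes tested. The values are relative to each library's upper quartile, which was 6442 in all 5 parents and 2010 in all 6 allele libraries, so the depth behind them is not known from the files. In each of these 11 libraries exactly 10 genes shared the highest value, and the next genes followed in sets of 10 of nearly equal value. The second set spanned at most 1.02-fold within a library and lay 2.02- to 2.80-fold below the first. Differences of the most abundant genes should be read with these steps in mind. Summed levels of 7 haploid-specific genes were 4040 to 4460 in the 5 parents. Among the parents *HO* was listed at 0 only in RM11-1, and *URA3* had 101 normalized counts in RM11-1 against 21 to 32 in the other parents.

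Motifs were searched on both strands in the 500 bases before each start codon of the S288C reference (RefSeq, R64), and positions are counted from the start codon. The Rlm1 motif, CTA and TAG on either side of 4 bases that are A or T, was present before 9 of the 39 wall genes (23.1%) and before 1.76% of all 5790 promoters. The 39 were chosen by name and include 12 known to respond to Slt2 and Rlm1, so this share is not independent of the choice. The 9 are shown because they include *PST1*, the called gene with the largest allelic difference, and *CWP1*, which was called higher in Malaysian parents. Each stretch is 30 bases on the strand of the gene with the motif in capitals.
*PST1* (chrIV:563212-563241, plus strand): ttacgagtctCTAAAAATAGcgtaggcaca
*CWP1* (chrXI:260736-260765, plus strand): tacgtcataaCTAAAAATAGcgttagccac
*SED1* (chrIV:600303-600332, plus strand): gcatatatcgCTAAAATTAGccatcagaac
*CCW14* (chrXII:903495-903524, plus strand): cggaaaattaCTATTTATAGaagcattgga
*HSP150* (chrX:120216-120245, plus strand): acattttgagCTAAATTTAGattttggtca
*PIR3* (chrXI:144111-144140, plus strand): gattagcaaaCTAATTATAGatcaaaggcc
*GAS5* (chrXV:268054-268083, plus strand): tttgcttataCTATAAATAGgaaggtccct
*BGL2* (chrVII:1058924-1058953, minus strand): atatgcagttCTATTTTTAGtaaaagaaac
*RLM1* (chrXVI:381439-381468, minus strand): gagatgaaagCTAATAATAGaaacagctcg
The motif letters were the same before *PST1*, at position -305, and before *CWP1*, at -386. Among the 9 holders, 1 was called higher (*CWP1*) and 1 lower (*PST1*) in the parents, beside 10.9% of all genes tested, with a median difference of -0.32 on the log2 scale and a range of -2.57 to 1.15. Between alleles 1 of the 9 was called, lower (*PST1*), beside 4.71% of all genes tested, and the median was -0.52. With the hybrid as a block 4 of the 9 were called, all lower (*PST1*, *CWP1*, *SED1* and *CCW14*), beside 17.9% of all genes tested. A match in the reference is a description of these letters, and the strains' own promoters were not read here.

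The motif CGCGAAA, 1 form of the cell cycle box bound by SBF (Swi4 and Swi6), was present before 11 of the 39 genes (28.2%), against 5.94% of all promoters. Other forms of this box were not searched, so these are not counts of all such boxes. Those 11 were *CWP1*, *CWP2*, *CCW12*, *GAS1*, *GAS3*, *UTR2*, *SCW4*, *SCW10*, *SUN4*, *SIM1* and *TOS1*. Stretches are shown for the 4 whose populations did not overlap and whose values are described below (*SCW4*, the other gene without overlap, differed by 0.06 on the log2 scale), with the motif, or its reverse complement, in capitals.
*CWP1* (chrXI:260661-260690, plus strand): acaaacccctccCGCGAAAacaaaaaaaga
*SIM1* (chrIX:127913-127942, plus strand): ctttttttggcgTTTCGCGtcagtcaatag
*SUN4* (chrXIV:501340-501369, plus strand): tcggatttacggCGCGAAAataagtttctg
*TOS1* (chrII:565030-565059, minus strand): tttttcttttctTTTCGCGttggcgacttt
The 11 holders had a median parental difference of 0.06 and a median allelic difference of 0.24 on the log2 scale. The stress element AGGGG was found before 11 of the 39 genes (28.2%) and 34.1% of all promoters.

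In the parents, 7 of the 39 genes were called (17.9%), against 10.9% of the 5792 genes tested. *CWP1* and *NCA3* were higher in Malaysian strains, and *TIP1*, *PST1*, *SKN1*, *SIM1* and *MID2* were lower. Among all genes tested 5.06% were called higher and 5.82% lower. At an unadjusted *P* under 0.05 by limma, 12 of the 39 (30.8%) passed, against 30.5% of all genes tested. The remaining 32 wall genes had differences of -0.76 to 2.94 on the log2 scale and adjusted *P* values of 0.0509 or more by limma. The median difference over the 39 genes was -0.18, with 16 above 0 and 23 below. Over all 5792 genes tested the median was 0.03, with 3082 above 0 and 2710 below. The populations did not overlap for 15 of the 39 genes (38.5%), against 48.9% of all genes tested. Of these, 4 were higher in Malaysian strains (10.3%, against 26.5%) and 11 lower (28.2%, against 22.4%). Beside these counts, UWOPS03.461.4 and UWOPS05.227.2 had nearly the same levels, and without either of them the calls dropped to 2 (*TIP1* and *NCA3*) and to 1 (*TIP1*), while 107 and 112 genes of the whole table stayed past the threshold instead of 630.

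**Figure D1:**
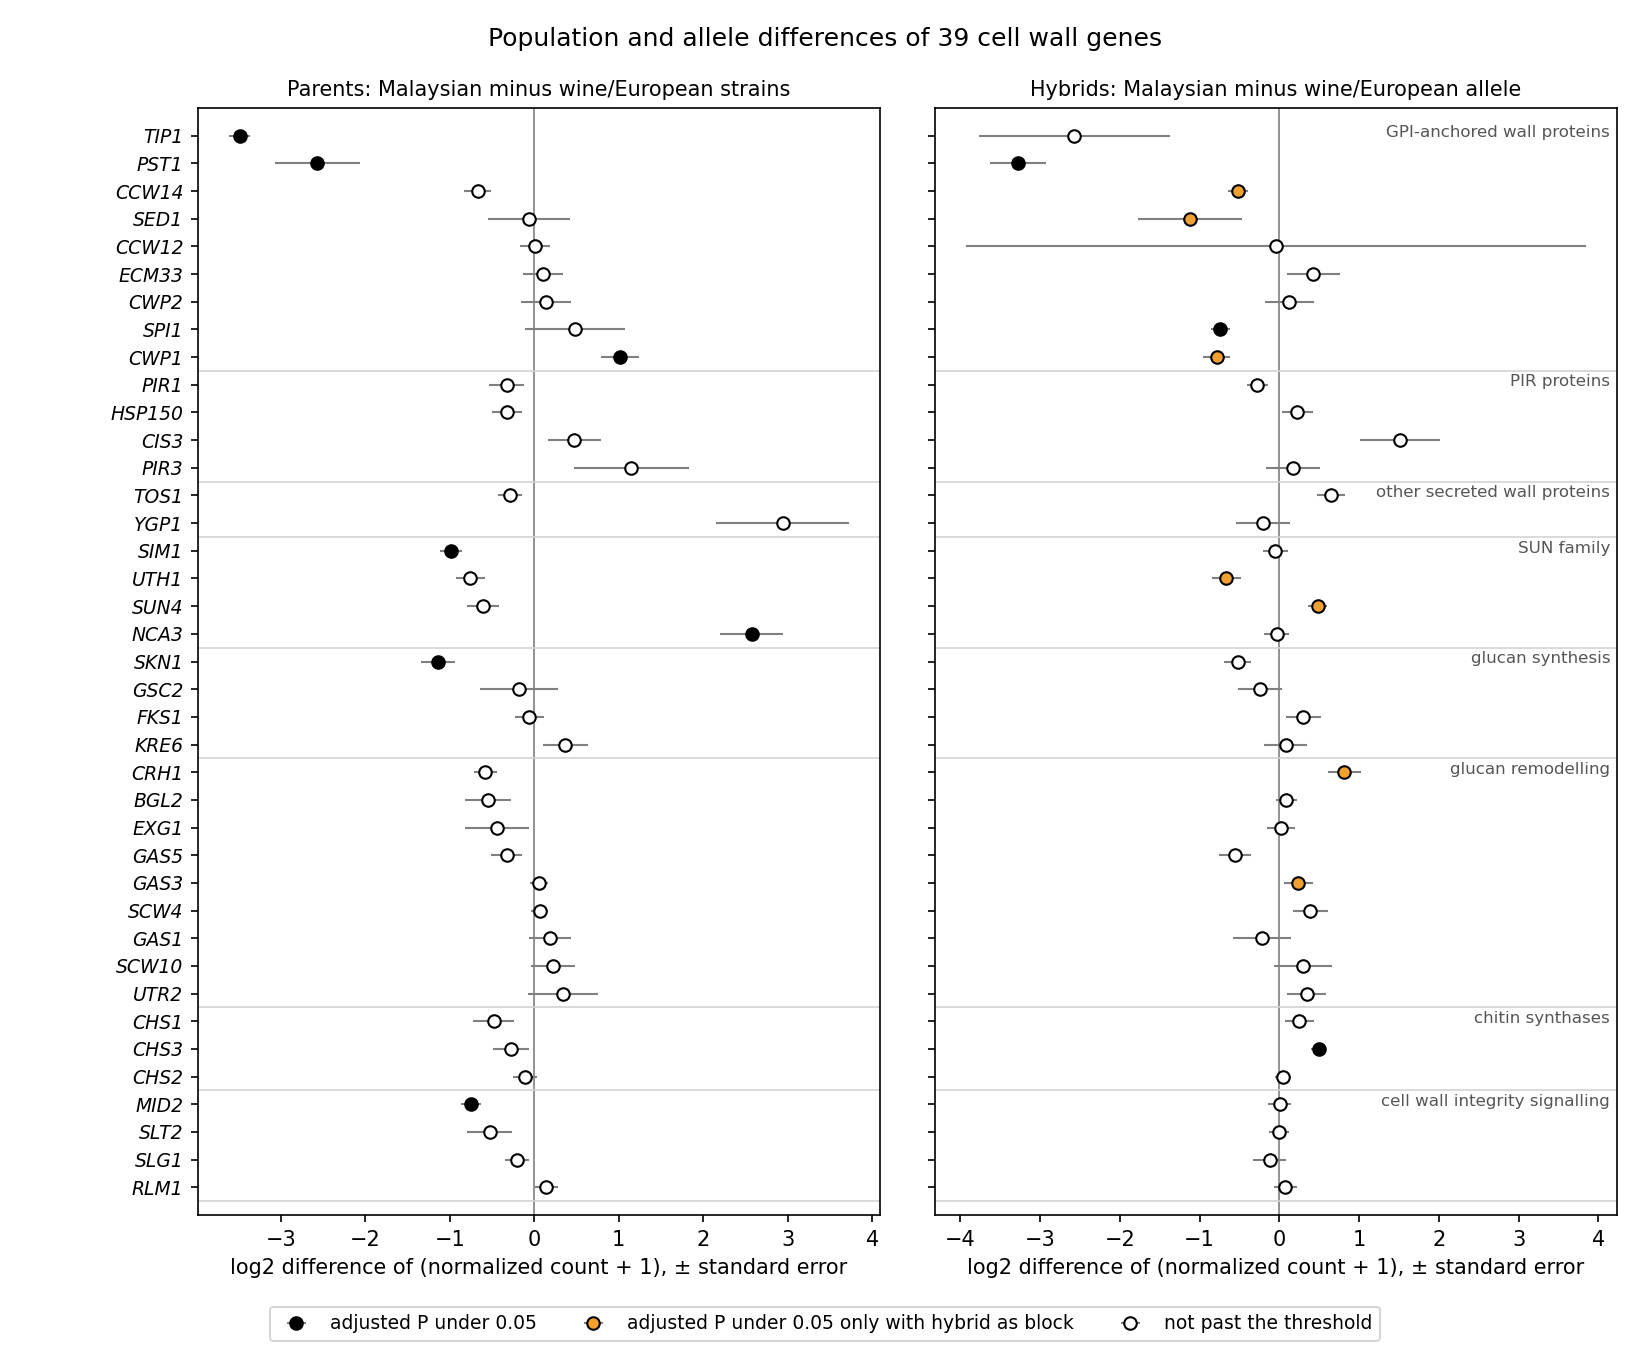
Difference of log2(normalized count + 1), Malaysian minus wine/European, for the 39 wall genes, between parents (left) and between alleles of the hybrids (right), in the order of their roles. Points are limma estimates with their standard errors, black where the adjusted *P* was under 0.05 and orange where it was so only with the hybrid as a block. In the parents 7 genes are black, 5 of them left of 0, and between alleles *PST1*, *SPI1* and *CHS3* are black.

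The GPI-anchored mannoproteins held the largest falls. *TIP1* (YBR067C, chrII:372103-372735, minus strand), a mannoprotein of the Srp1/Tip1 family first found as induced by temperature shock, had 453, 382 and 404 normalized counts in the Malaysian strains, against 4419 and 4840 in the wine/European strains. The 2 groups were far apart and each was tight, and the difference was -3.49 ± 0.13 (SE) on the log2 scale, with an adjusted *P* of 0.000356. *TIP1* stayed past the threshold when any single strain was left out, with adjusted *P* values of 0.00139 to 0.00676.

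*PST1* (YDR055W, chrIV:563527-564861, plus strand), a GPI-anchored protein secreted by regenerating protoplasts, had 1859, 666 and 1768 normalized counts in the Malaysian strains, against 6019 and 9862 in the wine/European strains. All Malaysian strains were below both wine/European strains, and UWOPS05.217.3 was the lowest. The difference was -2.57 ± 0.51 (SE) on the log2 scale, with an adjusted *P* of 0.0355. The direction held without each strain in turn, but the adjusted *P* passed the threshold only without UWOPS05.217.3 (0.0276) and was 0.0559 to 0.0919 without any of the other 4. *ECM33*, its paralog, which is needed for normal wall structure, had 116293, 106844 and 118299 normalized counts in the Malaysian strains and 81797 and 136105 in the wine/European strains. The populations overlapped for *ECM33*, with a difference of 0.11 ± 0.24 (SE). The log2 ratio of *PST1* to *ECM33* was -5.97, -7.32 and -6.06 in the Malaysian strains, against -3.76 and -3.79 in the wine/European strains, and a two-sided exact permutation test over the 5 strains gave *P* = 0.1, the smallest it allows. Of 8 pairs of related genes compared in this way, 4 gave 0.1 (0.2 after Benjamini-Hochberg adjustment over the 8) and the other 4 gave 0.3 or 0.9, so no pair passed the adjustment.

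*CWP1* (YKL096W, chrXI:261132-261851, plus strand), a major mannoprotein that is incorporated at the birth scar, was the called gene of this class that rose. It had 124401, 83369 and 123963 normalized counts in the Malaysian strains, against 48489 and 59538 in the wine/European strains. No Malaysian strain was as low as a wine/European strain, and the difference was 1.02 ± 0.23 (SE) on the log2 scale, with an adjusted *P* of 0.0487. With any strain but UWOPS05.217.3 left out, the adjusted *P* was 0.0567 to 0.173, but it was 0.0284 without UWOPS05.217.3. Its neighbour *CWP2*, a mannoprotein linked to low-pH tolerance of the wall, had 95252, 78477 and 79044 normalized counts in the Malaysian strains and 54983 and 105330 in the wine/European strains, which overlapped.

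The other GPI-anchored proteins were not called in the parents. *CCW14*, an inner wall mannoprotein, was lower in every Malaysian strain, with 30438, 30357 and 27710 normalized counts against 40510 and 54171 in the wine/European strains, and a difference of -0.67 ± 0.16 (SE) with an adjusted *P* of 0.0554. *SED1*, the most abundant wall protein of stationary cells, had 207719, 106256 and 137457 normalized counts in the Malaysian strains and 92275 and 247387 in the wine/European strains, with the wine/European strains at both ends of the range. *SPI1*, a weak acid-induced protein, had 3854, 929 and 2406 normalized counts in the Malaysian strains and 1264 and 1703 in the wine/European strains. The populations overlapped for both genes. *CCW12*, a mannoprotein of the bud and of mating projections, was 1 of the 10 genes that shared the highest value in every parent, so its value cannot show a difference between populations.

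**Figure D2:**
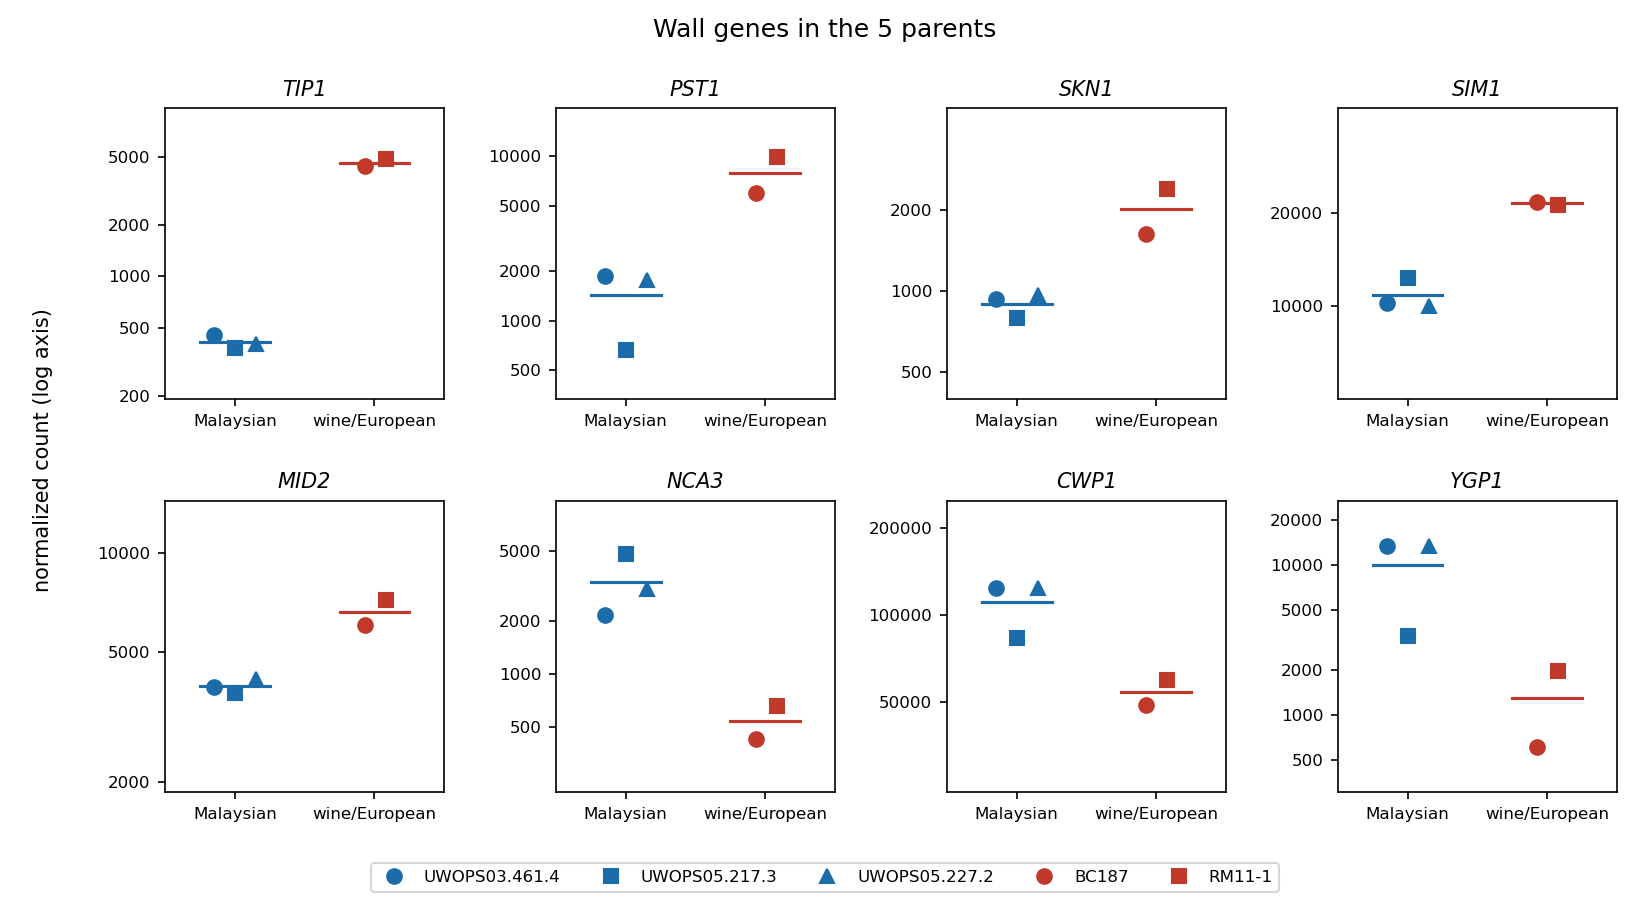
Normalized counts (log axes) of the 7 called wall genes and of *YGP1* in the 3 Malaysian strains (blue, left) and the 2 wine/European strains (red, right) of each panel. Each point is 1 culture and the bars are the means of the normalized counts. *TIP1* lies between 382 and 453 in Malaysian strains and at 4419 and 4840 in wine/European strains, and *NCA3* and *CWP1* run the other way.

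None of the 4 PIR proteins was called by limma in the parents, 0 passed at an unadjusted *P* under 0.05, and the differences ran from -0.33 to 1.15. *PIR3* had the largest, with 1698, 549 and 1634 normalized counts in the Malaysian strains and 297 and 902 in the wine/European strains. The level in UWOPS05.217.3 lay between those of the wine/European strains, and the difference was 1.15 ± 0.68 (SE) with an adjusted *P* of 0.305. *YGP1*, a secreted glycoprotein that accumulates as nutrients run out, showed a similar order of strains, with 13393, 3347 and 13350 normalized counts in the Malaysian strains against 612 and 1966 in the wine/European strains. It was higher in every Malaysian strain by 2.94 ± 0.79 (SE) on the log2 scale, with an adjusted *P* of 0.0736 by limma. Leaving out UWOPS05.217.3 lowered the adjusted *P* of *YGP1* to 0.0393. It rose to 0.217 with UWOPS03.461.4 left out, and to 0.210 when UWOPS05.227.2 was dropped instead. The difference at *YGP1* was 2.10 without BC187 and 3.78 without RM11-1. The summed level of 10 general stress genes had a like order of strains, with 96525, 36368 and 90430 in the Malaysian strains against 11042 and 27217 in the wine/European strains. *TPS1* and *HXK1* made up 36.0% to 60.2% of this sum. Not all of the list followed that order, since *HSP26* was lower in every Malaysian strain and the populations overlapped at *HSP104*, *PGM2* and *GPH1*. *PGM2* had 1322 normalized counts in UWOPS05.217.3 against 1822 in RM11-1, and *GPH1* had 611 against 842 in the same strains. *HSP26* had 257, 219 and 270 normalized counts in the Malaysian strains, against 284 and 494 in the wine/European strains, and *HSP104* had 5325, 3842 and 4840 in the Malaysian strains, against 1597 and 7110 in the wine/European strains. Of that list *HSP12* and *CTT1* were called higher and the other 8 were not called, beside 5.06% of all genes tested called higher. None of the list was called between alleles without the block (3 at an unadjusted *P* under 0.05, limma), beside 4.71% of all genes tested. With the hybrid as a block 1 was called, *GPH1*, with the Malaysian allele higher (adjusted *P* = 0.0337, limma), beside 17.9% of all genes tested. The part of this list in the levels of *YGP1*, *PIR3* and *SPI1* was not tested.

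The SUN family, secreted proteins with a conserved beta-glucosidase-like domain, included 2 called genes of opposite direction. *SIM1* (YIL123W, chrIX:128151-129581, plus strand), whose product is found in the wall and the medium, had 10213, 12319 and 10049 normalized counts in the Malaysian strains, against 21718 and 21163 in the wine/European strains. The difference was -0.99 ± 0.13 (SE) with an adjusted *P* of 0.013, and the groups were well apart. *NCA3* (YJL116C, chrX:193860-194873, minus strand), first described for its effect on the mitochondrial ATP synthase messenger, had 2160, 4815 and 3030 normalized counts in the Malaysian strains, against 426 and 659 in the wine/European strains. It was higher by 2.57 ± 0.37 (SE) on the log2 scale with an adjusted *P* of 0.0168, and every Malaysian strain was above both wine/European strains. *NCA3* was not called without UWOPS05.227.2 (adjusted *P* = 0.0756), and *SIM1* was not called without UWOPS03.461.4 (0.0774) or UWOPS05.227.2 (0.0756).

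The other SUN genes had lower values in Malaysian strains and were not called. *UTH1*, a wall and mitochondrial protein, had 35996, 47796 and 35069 normalized counts in the Malaysian strains against 68638 and 64070 in the wine/European strains, a difference of -0.76 ± 0.17 (SE) with an adjusted *P* of 0.0511. *SUN4*, which takes part in septation, had 12288, 11480 and 11714 normalized counts in the Malaysian strains against 22129 and 14568 in the wine/European strains, a difference of -0.60 ± 0.19 (SE) with an adjusted *P* of 0.106. The groups did not overlap for either gene. The log2 ratio of *NCA3* to its paralog *UTH1* was -4.06, -3.31 and -3.53 in the Malaysian strains and -7.33 and -6.60 in the wine/European strains. The two-sided exact permutation *P* was again 0.1, the smallest this test allows, so it cannot decide.

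Among the glucan synthesis genes, *SKN1* fell. *SKN1* (YGR143W, chrVII:775193-777508, plus strand), a type II membrane protein of beta-1,6-glucan synthesis and the minor partner of *KRE6*, had 932, 797 and 970 normalized counts in the Malaysian strains, against 1630 and 2387 in the wine/European strains. All Malaysian strains were lower, by -1.14 ± 0.20 (SE) on the log2 scale with an adjusted *P* of 0.027. It was not called without UWOPS03.461.4, UWOPS05.217.3 or UWOPS05.227.2, with adjusted *P* values of 0.0619 to 0.108. *KRE6* had 53242, 45075 and 51734 normalized counts in the Malaysian strains and 28573 and 52289 in the wine/European strains, which overlapped. The log2 ratio of *SKN1* to *KRE6* was -5.83, -5.82 and -5.74 in the Malaysian strains against -4.13 and -4.45 in the wine/European strains. Every Malaysian strain was thus below both wine/European strains (exact permutation *P* = 0.1, two-sided, the smallest this test allows). The beta-1,3-glucan synthase subunits were not called. *FKS1*, the major subunit in growing cells, differed by -0.06 ± 0.17 (SE) and *GSC2*, the stress-induced one, by -0.18 ± 0.46 (SE).

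None of the 9 glucan remodelling genes was called by limma in the parents, and 1 passed at an unadjusted *P* under 0.05. This was *CRH1*, a transglycosylase that joins chitin to beta-glucan, with 23195, 27099 and 23622 normalized counts in the Malaysian strains against 34118 and 39475 in the wine/European strains. Its groups did not overlap, and the difference was -0.58 ± 0.13 (SE) with an adjusted *P* of 0.0509. *UTR2*, of the same family, had 95903, 99175 and 93108 normalized counts in the Malaysian strains and 125326 and 45735 in the wine/European strains, so that the wine/European strains lay on either side of the Malaysian strains. *GAS1*, the main beta-1,3-glucanosyltransferase, and *FKS1* had the identical value of 207520 in UWOPS03.461.4. *GAS1*, *GAS3*, *GAS5*, *BGL2*, *EXG1*, *SCW4*, *SCW10* and *UTR2* had differences from -0.55 to 0.34. *GAS3* had 15710, 15870 and 14453 normalized counts in the Malaysian strains and 15564 and 13966 in the wine/European strains, which overlapped.

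None of the 3 chitin synthases was called by limma in the parents, and 0 passed at an unadjusted *P* under 0.05. *CHS1*, which repairs the septum after separation, had 4295, 4625 and 4320 normalized counts in the Malaysian strains and 4638 and 8148 in the wine/European strains. UWOPS05.217.3 and BC187 were nearly equal, RM11-1 stood above the other 4, and the difference was -0.48 ± 0.24 (SE) with an adjusted *P* of 0.246. *CHS3*, which makes most of the chitin, had 12839, 11669 and 12429 normalized counts in the Malaysian strains and 11719 and 18985 in the wine/European strains, which overlapped. *CHS2*, the primary septum synthase, differed by -0.11 ± 0.14 (SE).

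Of the 4 integrity pathway genes, the sensor *MID2* fell. *MID2* (YLR332W, chrXII:790676-791806, plus strand) had 3911, 3734 and 4119 normalized counts in the Malaysian strains, against 6044 and 7196 in the wine/European strains. The groups were apart, and the difference was -0.75 ± 0.12 (SE) with an adjusted *P* of 0.0206, which was 0.111 and 0.0919 without UWOPS03.461.4 and UWOPS05.227.2. Its 5′ part overlaps YLR331C on the opposite strand (chrXII:790669-791046), and without a stated strand the reads of both cannot be told apart. The sensor *SLG1*, the kinase gene *SLT2* and the transcription factor gene *RLM1* were not called, with differences from -0.52 to 0.14. *SLT2* had 3579, 2588 and 3534 normalized counts in the Malaysian strains and 3551 and 5959 in the wine/European strains, which overlapped.

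Other genes of these pathways are given for context, and their counts stand beside 10.9% of all genes tested called in the parents. Of 14 further integrity pathway genes, *PRM5* was called and 13 were not. *PRM5*, a known Rlm1 target, had 153, 110 and 106 normalized counts in the Malaysian strains, against 1080 and 792 in the wine/European strains, a fall of -2.92 ± 0.25 (SE) with an adjusted *P* of 0.00401. Of 8 further chitin genes *GNA1* rose and *CHS6* fell, of 12 further glucan genes *EXG2* and *KRE5* fell, and of 8 further wall proteins and yapsins *PIR5* rose. No gene of a list of 9 daughter cell separation genes was called by limma (2 passed at an unadjusted *P* under 0.05), and its summed level was 87482, 135991 and 74086 in the Malaysian strains and 145172 and 215296 in the wine/European strains. *PRY3* set these sums apart, and without it they were 65358, 95804 and 65281 in the Malaysian strains and 86326 and 113727 in the wine/European strains, which overlapped. Within the 39 genes, 12 are known to respond to Slt2 and Rlm1, and of these *PST1* was lower, *CWP1* was higher and 10 were not called, with a median of -0.30. *PRM5* had allelic differences that were not called, -0.76 ± 0.58 (SE) with an adjusted *P* of 0.627.

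Strains of a single population differed at the wall genes too. RM11-1 was above BC187 at 27 of the 39 genes, beside 3408 of all 5792 genes tested. The median difference was 0.43 on the log2 scale, beside a median of 0.08 over all genes tested. The difference was at least 1 in size for 15.4% of the wall genes and for 5.96% of all genes. The largest were *YGP1* (1.68), *PIR3* (1.60), *GSC2* (1.43), *SED1* (1.42) and *EXG1* (1.14), all higher in RM11-1, and *UTR2* (-1.45), which was lower in RM11-1. UWOPS03.461.4 and UWOPS05.227.2 were close, with a median absolute difference of 0.05 over the wall genes and 0.08 over all genes. UWOPS05.217.3 stood apart from both. The median absolute difference from UWOPS03.461.4 was 0.24 over the wall genes and 0.18 over all genes. From UWOPS05.227.2 it was 0.27 and 0.17. These differences were at least 1 in size for 12.8% and 10.3% of the wall genes, beside 2.78% and 2.73% of all genes. UWOPS05.217.3 was lower than the mean of the other Malaysian strains at *YGP1* (-2.00), *SPI1* (-1.71), *PIR3* (-1.60) and *PST1* (-1.44), and higher at *NCA3* (0.91) and *CIS3* (0.79). With a single culture per strain, none of these differences was tested.

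**Figure D3:**
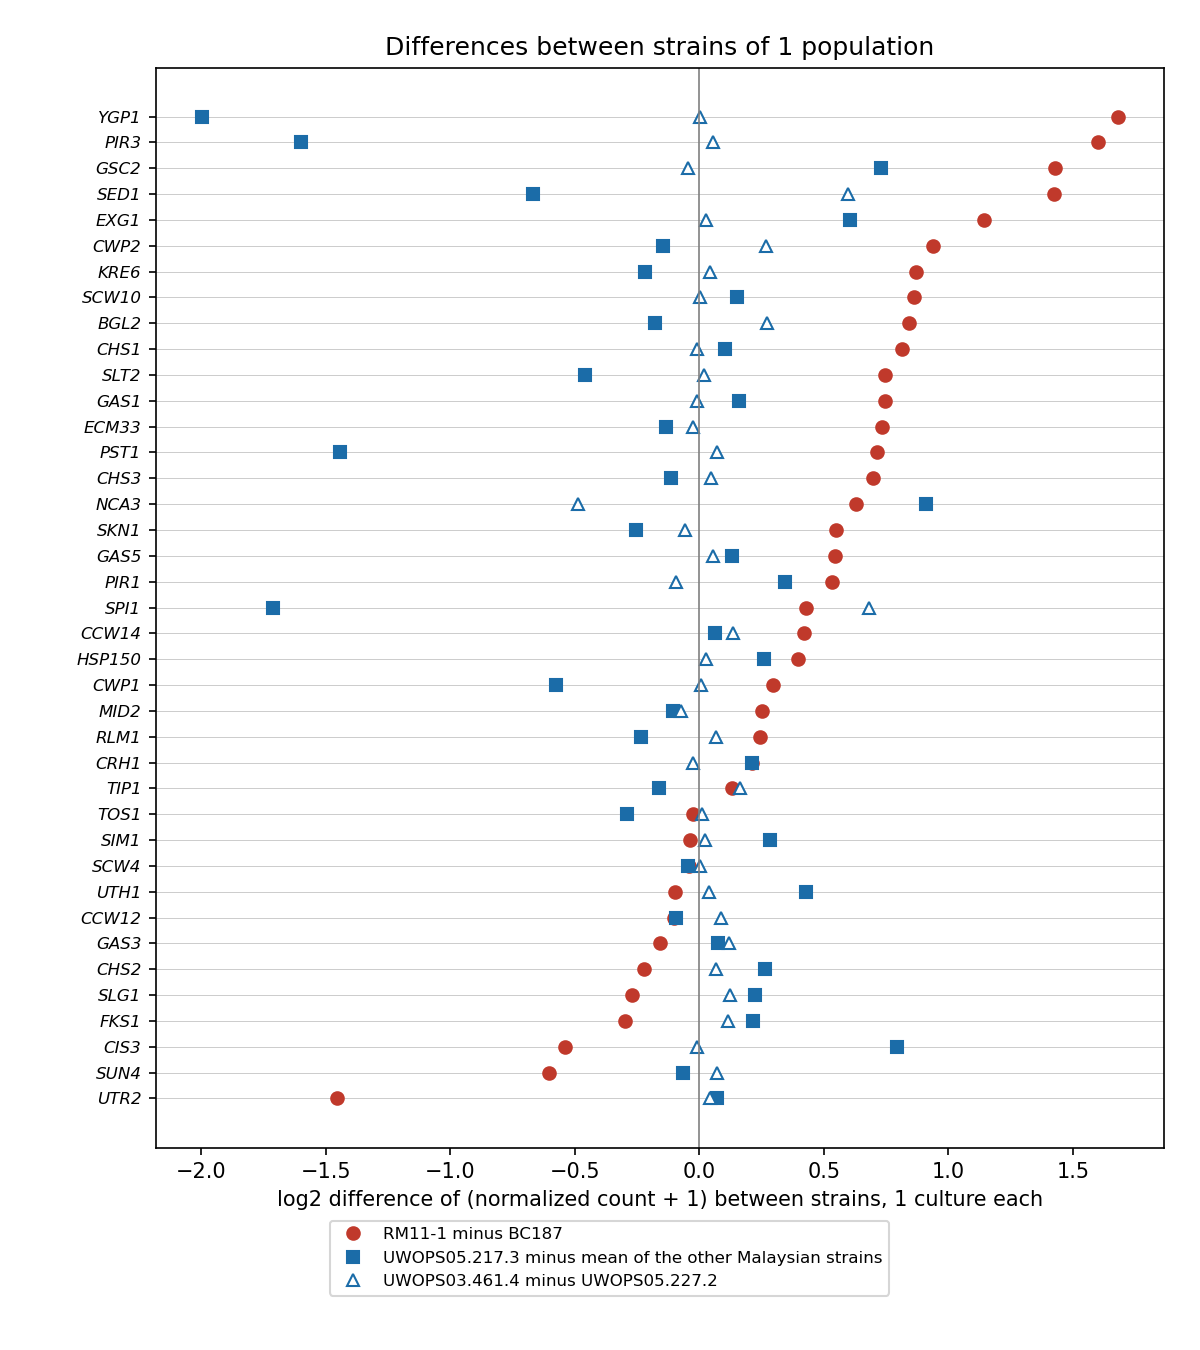
Differences of log2(normalized count + 1) between strains of the same population for the 39 wall genes, 1 culture per strain. Red circles are RM11-1 minus BC187, blue squares UWOPS05.217.3 minus the mean of the other Malaysian strains, and open triangles UWOPS03.461.4 minus UWOPS05.227.2. Red circles lie right of 0 at 27 of 39 genes, and open triangles gather near 0.

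The hybrids carry both alleles in the same cell, so the ratio of alleles compares them in a shared cellular environment. Alleles were called for 3 of the 39 genes (7.69%), against 4.71% of the 5738 genes tested. The Malaysian allele was lower at *PST1* and *SPI1* and higher at *CHS3*, against 2.63% lower and 2.07% higher over all genes tested. At an unadjusted *P* under 0.05 by limma, 12 of the 39 (30.8%) passed, against 17.6% of all genes tested. Both alleles of a hybrid come from the same culture and their deviations from the allele means correlated within each hybrid. With the hybrid as a block, 10 of the 39 genes were called (25.6%), against 17.9% of all genes tested. The 6 called lower and the 4 called higher stood beside 8.87% and 9.01% of all genes tested. At an unadjusted *P* under 0.05 by limma with the block, 17 of the 39 (43.6%) passed, against 35.8% of all genes tested. The 10 called were *PST1*, *CWP1*, *SED1*, *CCW14*, *SPI1* and *UTH1*, with the Malaysian allele lower, and *CHS3*, *CRH1*, *SUN4* and *GAS3*, with the Malaysian allele higher. The sign was the same in all 3 hybrids for 20 of the 39 genes (51.3%), against 57.4% of all genes tested. Each direction held 10 of them (25.6%), against 28.1% with the Malaysian allele lower and 29.3% with it higher over all genes tested. Without YHL063, 1 of the 39 genes (*PST1*) stayed past the threshold with the block and none without it, and 55 and 12 genes of the whole table did.

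*PST1* had the largest called allelic difference of the set. In YHL058 the Malaysian allele had 119 normalized counts and the wine/European allele 1244, in YHL063 they had 85 and 695, and in YHL065 they had 58 and 640. The Malaysian allele was the lower in every hybrid by about the same amount, and the difference was -3.28 ± 0.35 (SE) on the log2 scale, with an adjusted *P* of 0.00559 and of 0.00147 with the block. With the block it passed the threshold without any single hybrid (0.00347 to 0.0281). Without the block it did not when YHL063 (0.194) or YHL065 (0.0629) was left out.

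**Figure D4:**
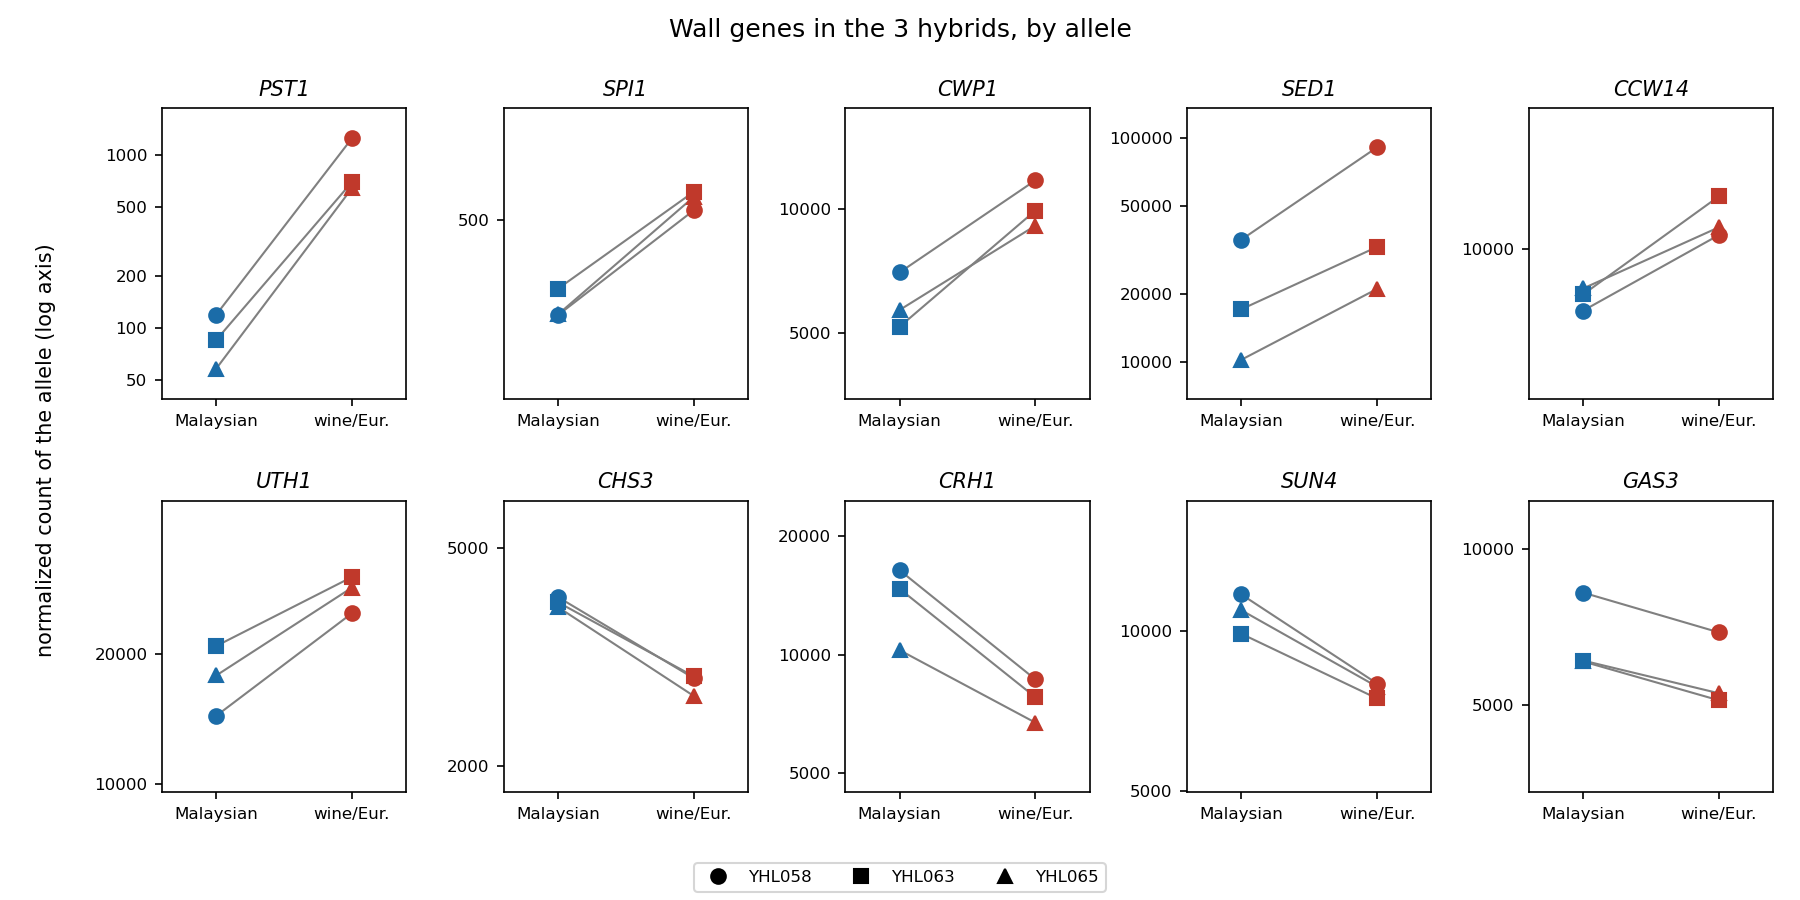
Normalized counts (log axes) of the Malaysian (blue, left) and wine/European (red, right) allele in each hybrid for the 10 wall genes called with the hybrid as a block, with a line joining the alleles of a hybrid. At *PST1* the Malaysian allele lies at 58 to 119 and the wine/European allele at 640 to 1244. The lines of a gene all slope the same way.

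The other GPI-anchored genes called between alleles also had the Malaysian allele lower. *SPI1* had 316 and 524 normalized counts from the Malaysian and wine/European allele of YHL058, 359 and 573 in YHL063, with 317 and 559 in YHL065. The alleles did not overlap, and the difference was -0.74 ± 0.12 (SE) with an adjusted *P* of 0.0266, or 0.00968 with the block. Without the block *SPI1* was not called when any hybrid was left out (adjusted *P* of 0.0982 to 0.385, limma). With the block it was not called without YHL063 (0.0989). Its promoter held the stress element AGGGG at 3 positions, of which the 2 closest to each other are shown, in capitals, together with the single one before *YGP1*.
*SPI1* (chrV:468096-468125, plus strand): acgttccttCCCCTcaCCCCTcggcttgtt
*YGP1* (chrXIV:336099-336128, plus strand): acttctcgaagaAGGGGccgaaaattagcg
At *YGP1* the alleles differed by 0.01 on the log2 scale in YHL058, by -0.61 in YHL063 and by -0.02 in YHL065. The levels were close in 2 of the hybrids, and the fitted difference of -0.21 ± 0.34 (SE) was not called.

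*CWP1* had 7015 and 11743 normalized counts from the Malaysian and wine/European allele in YHL058, 5175 and 9914 in YHL063, with 5684 and 9110 in YHL065. The Malaysian allele was lower in each hybrid, by -0.79 ± 0.17 (SE) on the log2 scale with an adjusted *P* of 0.0531, and of 0.00807 with the block. This is the opposite direction to the parents. *SED1* had 35196 and 91079 normalized counts in YHL058, 17173 and 32628 in YHL063, with 10207 and 21170 in YHL065, in the same order of alleles. Its level differed by hybrid more than by allele, and the difference of -1.12 ± 0.65 (SE) had an adjusted *P* of 0.481, against 0.0097 with the block. *CCW14* had 7534 and 10652, 8117 and 12721, and 8341 and 11039 normalized counts in YHL058, YHL063 and YHL065, a difference of -0.52 ± 0.12 (SE) with an adjusted *P* of 0.0779, or 0.0174 with the block. The Malaysian alleles of *CCW14* lay below all 3 wine/European alleles.

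At *TIP1*, the gene with the largest fall in the parents, the allelic difference varied between hybrids. The Malaysian and wine/European alleles had 172 and 282 normalized counts in YHL058 and 195 and 325 in YHL063. Both of these hybrids have UWOPS03.461.4 as Malaysian parent. In YHL065, whose Malaysian parent was UWOPS05.217.3, the Malaysian and wine/European alleles had 8 and 693. The value of 8 came from 1 library and ranked 5718 there. Among the parents, which were normalized separately, UWOPS05.217.3 had 382 and UWOPS03.461.4 had 453. The Malaysian allele was the lower in every hybrid, with log2 differences of -0.71 and -0.73 in the pair that share UWOPS03.461.4 and of -6.27 in YHL065. The fitted difference of -2.57 ± 1.20 (SE) had an adjusted *P* of 0.343, and of 0.221 with the block. *CCW12* shared the highest value of the library in both alleles of YHL063 and YHL065 and ranked 4617 and 4758 among all genes in the Malaysian and wine/European allele libraries of YHL058.

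Of the PIR proteins, none was called by limma between alleles with or without the block, while 2 and 1 passed at an unadjusted *P* under 0.05. *CIS3*, which lies beside *HSP150*, had the largest allelic difference of the class. Its Malaysian and wine/European alleles had 4433 and 2362 normalized counts in YHL058, 10323 and 5050 in those of YHL063, and 9337 and 1540 in YHL065. The Malaysian allele was higher in each hybrid, by 1.51 ± 0.51 (SE) on the log2 scale, with an adjusted *P* of 0.188 and of 0.0572 with the block. In YHL058 both of its alleles were below every Malaysian allele of the other hybrids. *PIR3* was low, with 73 and 75 normalized counts from the Malaysian and wine/European allele of YHL058, 100 and 88 in YHL063, with 58 and 45 in YHL065.

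In the SUN family, *UTH1* kept the direction of the parents and *SUN4* did not. *UTH1* had 14364 and 24790 normalized counts from the Malaysian and wine/European allele of YHL058, 20832 and 30061 in YHL063, with 17806 and 28416 in YHL065, a difference of -0.66 ± 0.19 (SE). Its adjusted *P* was 0.121, and 0.0146 with the block. *SUN4* had 11709 and 7961, 9874 and 7462, and 10936 and 7854 normalized counts in the same hybrids, with the Malaysian allele higher by 0.48 ± 0.12 (SE) and an adjusted *P* of 0.0844, or 0.0145 with the block. At *NCA3* the alleles were close, within 208 to 263 normalized counts in all 6 libraries, as they were at *SIM1*, with 6186 and 7100, 7489 and 6699, and 5457 and 5917. Their allelic differences were -0.04 ± 0.16 (SE) and -0.05 ± 0.15 (SE), while both genes were called in the parents.

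*CHS3* was the called chitin synthase between alleles. Its Malaysian and wine/European alleles had 4069 and 2892 normalized counts in YHL058, 3981 and 2914 in YHL063, with 3901 and 2683 in YHL065. The alleles were tight and apart, with the Malaysian allele higher by 0.49 ± 0.10 (SE) and an adjusted *P* of 0.0426, or 0.00957 with the block. Without the block *CHS3* was not called when any hybrid was left out (adjusted *P* of 0.145 to 0.482, limma). With the block it was not called without YHL063 (0.0989). *SKT5*, the activator of Chs3, was also called, with the Malaysian allele higher by 0.73 ± 0.15 (SE) and an adjusted *P* of 0.0478. It was the called gene among the 8 further chitin genes without the block, beside 4.71% of all genes tested. With the block, where 17.9% of all genes were called, *CHS6* was called too, with the Malaysian allele lower by -0.89 on the log2 scale (adjusted *P* = 0.0108, limma). *CHS1* had 2218 and 2011, 1788 and 1572, and 1779 and 1329 normalized counts in the same hybrids. *CHS1* and *CHS2* differed by 0.25 ± 0.18 (SE) and 0.04 ± 0.10 (SE) and were not called.

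*CRH1* had 16390 and 8669 normalized counts from the Malaysian and wine/European allele in YHL058, 14703 and 7811 in YHL063, with 10277 and 6731 in YHL065. The Malaysian allele was higher in every hybrid, by 0.81 ± 0.21 (SE) on the log2 scale, with an adjusted *P* of 0.0929 and of 0.0105 with the block. *GAS3*, of the Gas family, had 8231 and 6906, 6071 and 5114, and 6096 and 5276 normalized counts in the same hybrids. The difference of 0.24 ± 0.18 (SE) had an adjusted *P* of 0.633, against 0.0449 with the block, and it was not called with the block when any hybrid was left out. *SKN1* had 164 and 286 normalized counts in YHL058 and 209 and 298 in YHL063, and its alleles in YHL065 differed by -0.26 on the log2 scale. The fit gave a difference of -0.52 ± 0.17 (SE) in the direction of the parents with an adjusted *P* of 0.172. For the integrity pathway genes the alleles were nearly equal, and none was called by limma (0 at an unadjusted *P* under 0.05). *MID2* had 2072 and 2006, 2535 and 2622, and 2475 and 2444 normalized counts, and the 4 genes of the class ranged from -0.12 to 0.07 on the log2 scale.

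Each hybrid was then set beside its own parents. The tables of parents and hybrids were normalized separately, so the ratios are given side by side without a test. For *PST1* the parents differed by -2.41, -1.69 and -3.17 on the log2 scale in the crosses of YHL058, YHL063 and YHL065, and the alleles by -3.38, -3.02 and -3.44. The allelic difference was the larger in all crosses. For *NCA3* the parents differed by 1.71, 2.34 and 3.50 and the alleles by 0.06, -0.11 and -0.06. The 2 alleles of *NCA3* were thus nearly equal in each cross whose parents were far apart.

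For 5 of the 39 genes (12.8%) the populations did not overlap and the alleles had the opposite sign in all 3 hybrids, against 5.35% of the 5738 genes tested. These were *CWP1*, *CRH1*, *SUN4*, *TOS1* and *CHS1*. *CWP1* differed by 1.06, 1.36 and 0.78 between parents and by -0.74, -0.94 and -0.68 between alleles of YHL058, YHL063 and YHL065. *CRH1* differed by -0.77, -0.56 and -0.33 between parents and by 0.92, 0.91 and 0.61 between alleles. The signs thus turned in each cross for both genes, and *SUN4* and *TOS1*, a covalently bound wall protein, did so at -0.25 to -0.95 and -0.17 to -0.49 between parents. For another 5 genes (12.8%), *PST1*, *TIP1*, *SKN1*, *CCW14* and *UTH1*, the direction was the same, against 25.4% of all genes tested. Across the 39 genes the correlation of fitted parental with fitted allelic differences was 0.50 by Pearson's and 0.21 by Spearman's measure, beside 0.53 and 0.47 across all genes tested. These are descriptions across genes of the same libraries, which are not independent replicates.

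**Figure D5:**
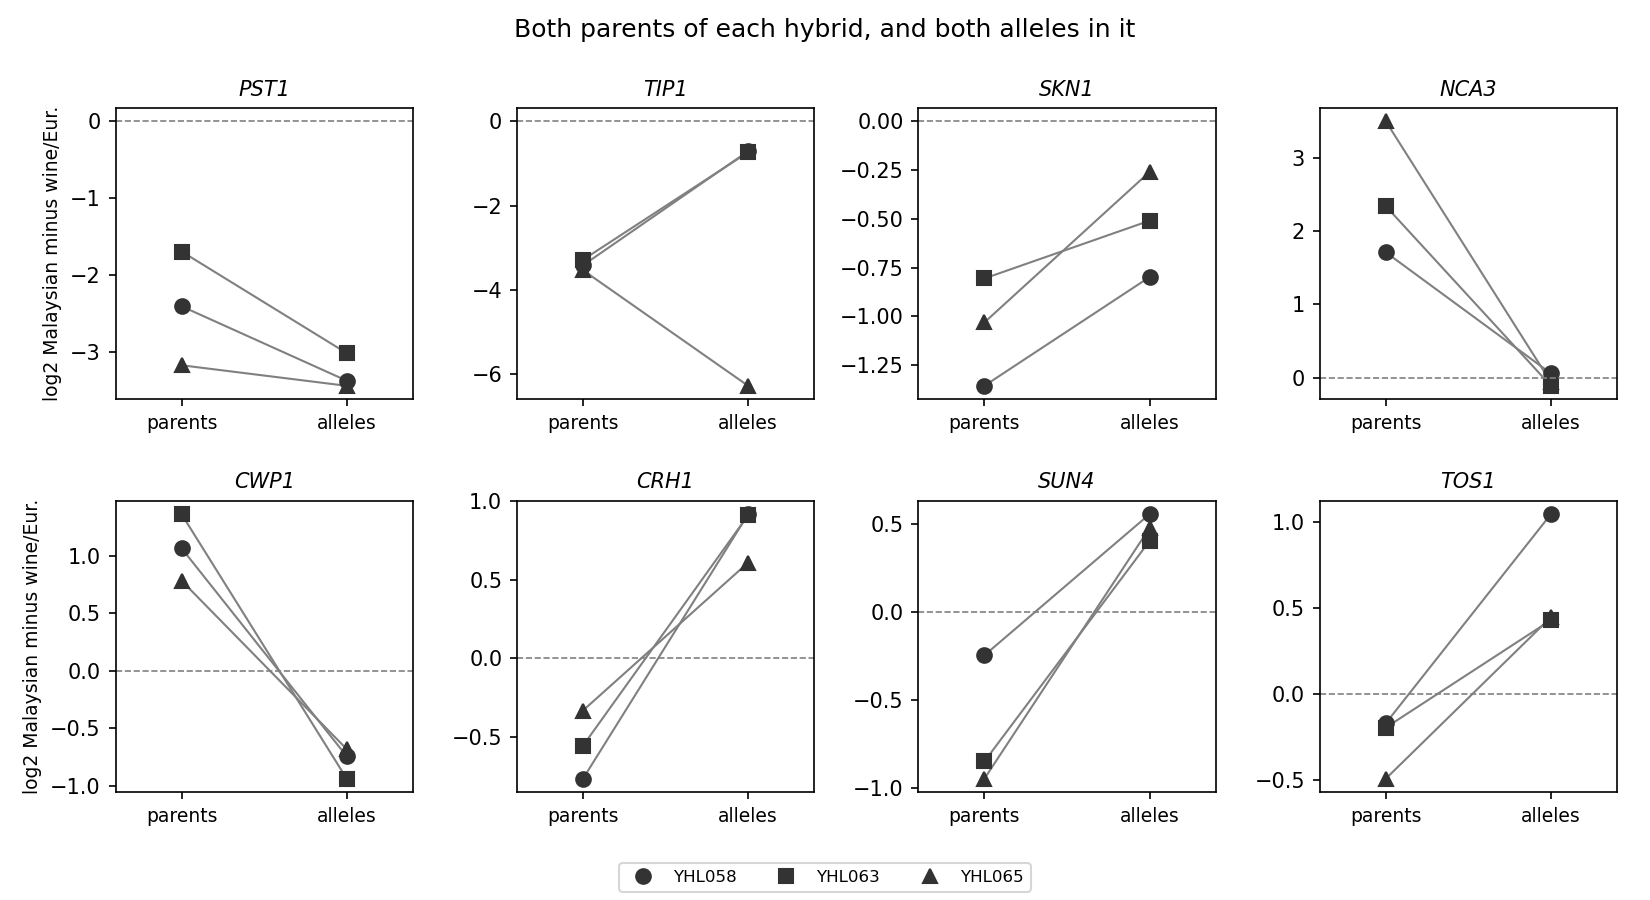
Log2 differences, Malaysian minus wine/European, between the 2 parents of each hybrid (left of each panel) and between the 2 alleles in that hybrid (right) for 8 wall genes, with a line per hybrid and a dashed line at 0. *PST1*, *TIP1* and *SKN1* stay below 0, *NCA3* meets 0 between alleles, and *CWP1*, *CRH1*, *SUN4* and *TOS1* cross it in every hybrid.

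Levels per kilobase of coding sequence, averaged over the 5 parents, spanned several orders of magnitude within the set. *CCW12*, at the shared highest value, had 2570510 normalized counts per kb, followed by *CWP2* with 296119, *SED1* with 155574, *GAS1* with 123947 and *CWP1* with 122156. The lowest were *GSC2* with 269, *SKN1* with 580, *RLM1* with 960 and *PIR3* with 1039 normalized counts per kb. The called genes *TIP1* and *PST1* had 3317 and 3022. The minor partners of the glucan synthesis pairs, *GSC2* and *SKN1*, were thus far below *FKS1* (38001) and *KRE6* (21351). No 100-base stretch of any of the 39 genes occurs a second time in the S288C reference, so unique mapping of reads of that length does not remove part of a gene there.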

How the data were processed

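Libraries of 5 parents and 3 hybrids were compared, 1 per strain. According to the study's methods, reads were mapped with Bowtie 0.12.7, first to S288C and then to strain genomes amended with the variants called. Only unique matches without any mismatch were kept, and hybrid reads had to cover differences between the parents. With genome sequences that were not amended, the study reports fewer genes called between parents and none between alleles. The deposited values are a score, a normalized number of reads. For it the authors summed reads per gene and corrected the sums with EDASeq for library size and GC content, and the files hold whole numbers with equal upper quartiles. Normalization between the alleles of a library can move an allele ratio. The deposited tables also hold the authors' means, their ratio (fold change) with its log2, and p-values from DESeq, which were not used. The build's release and the strand are not given in the sources used here. The study lists reads per library, but the depth behind each normalized value is not known. Its supplement calls the strain columns raw counts, whereas the equal upper quartiles and shared values are those of normalized columns.

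All genes whose mean reached 10 were fitted with limma 3.58.1 (R 4.3.3, eBayes with trend) on log2(value + 1), with a pseudocount of 1, which understates changes of low genes, and Benjamini-Hochberg adjustment over all genes tested. All 39 members passed this filter in both tables. Both alleles of a hybrid come from 1 culture, and their deviations from the allele means correlated at 0.67, 0.54 and 0.48 in YHL058, YHL063 and YHL065 over 5738 genes, so the hybrid was also fitted as a block. The members and lists were chosen with earlier results of these data known. All members were named, and those past the threshold in either comparison, with or without the block, and the largest parental difference of each role class were given in every library, except some alleles of *SKN1*, *NCA3* and *YGP1*, given as differences or a range. Pairs of paralogs and *CIS3* were added after their values were seen. Gene names, coordinates and promoters came from RefSeq R64 (S288C). The alternatives were pseudocounts of 10 and 0.5, no filter and a mean of 100, median-ratio rescaling, quantile normalization, no trend and leaving out each strain or hybrid. The fit was tested on simulated data. Tables were handled with pandas 2.3.3 and numpy 2.4.6 in Python 3.11.15, exact tests with scipy 1.17.1 and plots with matplotlib 3.10.9.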

Additional observations from a re-analysis of the deposited data

Results flagged for a closer look

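At 5 wall genes every pair of parents differed in one direction and every hybrid's alleles in the other. At *CHS1*, though, UWOPS05.217.3 and BC187 were nearly equal, with 4625 and 4638 normalized counts, and RM11-1 was the highest parent with 8148. The difference between the parental and the allelic value was not tested, since the tables were normalized separately. The fitted allelic difference, Malaysian minus wine/European on the log2 scale, was -0.79 at *CWP1*, beside a parental difference of 1.02. It was 0.81 at *CRH1*, beside -0.58 in the parents, and 0.48 at *SUN4*, beside -0.60. At *TOS1* it was 0.64, beside -0.28, and at *CHS1* 0.25, beside -0.48. Of these 10 values, the parental one of *CWP1* was called by limma without the block, and the allelic ones of *CWP1*, *CRH1* and *SUN4* with it.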

How the results depend on the processing

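No called value changed sign when a strain or a hybrid was left out. Of the members that were not called, 14 changed sign without 1 of the parents and 8 without 1 of the hybrids, among them *UTR2* (-0.38 without RM11-1), *SED1* (0.65 without RM11-1) and *CWP2* (-0.33 without BC187). Treating the hybrid as a block raised the calls between alleles to 10 members and 1026 genes from 3 and 270, with the estimates left as they were. Leaving out 1 strain in turn gave 1 to 10 called members and 107 to 1011 called genes in the parents, and leaving out 1 hybrid in turn gave 0 to 1 called members and 12 to 155 genes without the block, and 1 to 11 members and 55 to 710 genes with it. The fits with a block and a hybrid left out were chosen after seeing the data. The lowest parental counts came without UWOPS03.461.4 (2 members) or UWOPS05.227.2 (1 member), and the highest without RM11-1 (1011 genes, 8 members) and BC187 (695 genes, 10 members). Without YHL058 the block left 675 called genes. Without YHL063 no member was called between alleles, and 1 was with the block. Of the other alternatives, rescaling by median ratios gave 9 called members in the parents, and the fit without a trend lost *CWP1* in the parents (adjusted *P* = 0.0553) and *CHS3* between alleles (0.0639). The causes were not tested. The depth behind each value is not known, and levels within a set of 10 genes cannot be ranked.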
